A study of Mus musculus with 18 samples.

Results

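The genes described here are 10 regulators of mitotic entry and exit, taken by their RefSeq identifiers: Plk1 (NM_011121), Aurka (NM_011497), Aurkb (NM_011496), Aurkc (NM_020572), Wee1 (NM_009516), Cdc25a (NM_007658), Cdc25b (NM_023117), Cdc25c (NM_009860), Cdc20 (NM_023223) and Mad2l1 (NM_019499). All 10 were present among the 26823 transcripts counted in each embryo. The data are RNA sequencing counts of 18 individual 2-cell mouse embryos on the 129SVE strain background. Of these, 9 embryos had wild-type (WT) fathers and 9 had Parg(110)-/- fathers, and every father, 3 per group, gave 3 of them. All mothers were wild-type 129SVE (129S6/SvEvTac) females mated naturally, so the embryos of Parg(110)-/- fathers inherited the disrupted allele from the father alone and were heterozygous. The question was whether the father's genotype, which alters poly(ADP-ribose) metabolism and histone retention in sperm, was accompanied by a different transcript level in the embryo.

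Embryos are named by father and embryo number. WT fathers were 1, 2 and 3, and Parg(110)-/- fathers were 6, 7 and 8. Totals ran from 2852858 to 13355161 counts in WT embryos (median 7594021) and from 3560501 to 12497060 in embryos of Parg(110)-/- fathers (median 7191377), so that 1 count stood for 0.0749 to 0.351 CPM, counts scaled to a total of 1000000 per embryo. The number of transcripts with a count was 11823 to 16436 per WT embryo and 12064 to 14047 per embryo of a Parg(110)-/- father. All 14 listed oocyte genes were detected at a median of at least 1 CPM, and so were 6 of 10 listed 2-cell genes, whereas 0 of 8 cumulus and granulosa genes and 0 of 7 sperm genes reached that level. The summed oocyte genes were at 2160 to 3600 CPM in WT embryos and 1809 to 5444 CPM in the others, and the summed 2-cell genes at 23.8 to 100.3 and 13.4 to 132 CPM. Among the cumulus and granulosa genes Amh, Foxl2, Fshr, Ptx3 and Tnfaip6 had no count in any embryo, and among the sperm genes Odf1, Prm1, Tnp1 and Tnp2 had none. The others had counts in some embryos, at most 9.82 CPM for Cyp19a1, 4.17 for Inhba and 0.594 for Has2. Among the sperm genes the highest values were 4.18 CPM for Smcp, 3.52 for Akap4 and 0.174 for Prm2. Of 6 listed later embryo genes 1 reached a median of 1 CPM, Gata4, with counts in all 18 embryos (WT median 25.4 CPM). Parg itself (NM_011960) was at 74.7 ± 32.1 CPM in WT embryos and 46.4 ± 18.3 CPM in embryos of Parg(110)-/- fathers (SD, n = 9 each). Its log2 fold change was -0.67 (SE 0.34, edgeR adjusted p = 0.872), and since the disrupted allele was paternal this level does not by itself check the labels.

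Entry into mitosis is triggered by the cyclin-dependent kinase CDK1, which Wee1 holds inactive by phosphorylation and which the Cdc25 phosphatases switch on. Polo-like kinase 1 and the Aurora kinases then drive centrosome maturation, spindle assembly and chromosome alignment, and Cdc20 activates the anaphase-promoting complex (APC/C), the ubiquitin ligase that starts chromosome separation, unless Mad2 of the spindle checkpoint binds Cdc20 first. A 2-cell mouse embryo lies between oocyte meiosis and the later cleavages: it still holds transcripts stored by the oocyte, many regulated by the length of their poly(A) tails, and has begun transcription of its own. Each sample was a whole 2-cell embryo, so a level in 1 of its cells cannot be told apart from a level in both.

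Sequence at the starts of these genes is shown because promoters of genes expressed late in the cell cycle often hold a CHR (cell cycle genes homology region) and a CCAAT box. RefSeq promoters (GRCm38.p6, from 250 bases before to 50 bases after the start) were matched for 7 of the 10 genes, and no promoter entry was matched for Aurkb, Wee1 or Cdc25c. The promoters of Plk1 (chr7:122159185-122159484, plus strand), Cdc20 (chr4:118437294-118437593, minus strand) and Mad2l1 (chr6:66534971-66535270, plus strand) are written 5′ to 3′ along the gene, with CHR and CCAAT box matches in capitals. Plk1 is shown as the gene with the highest level per length, and Cdc20 and Mad2l1 as the antagonists compared further on.
Plk1: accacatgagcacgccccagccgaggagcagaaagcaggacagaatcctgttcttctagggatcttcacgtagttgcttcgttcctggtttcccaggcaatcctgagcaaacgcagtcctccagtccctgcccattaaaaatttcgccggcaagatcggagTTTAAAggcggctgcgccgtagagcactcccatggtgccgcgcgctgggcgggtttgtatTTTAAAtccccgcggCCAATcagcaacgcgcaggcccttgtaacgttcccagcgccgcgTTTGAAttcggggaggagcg
Cdc20: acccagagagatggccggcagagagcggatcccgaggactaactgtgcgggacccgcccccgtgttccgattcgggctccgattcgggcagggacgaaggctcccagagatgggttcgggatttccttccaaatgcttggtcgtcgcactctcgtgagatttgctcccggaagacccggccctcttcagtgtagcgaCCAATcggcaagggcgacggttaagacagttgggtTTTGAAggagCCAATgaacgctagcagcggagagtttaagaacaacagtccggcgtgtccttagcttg
Mad2l1: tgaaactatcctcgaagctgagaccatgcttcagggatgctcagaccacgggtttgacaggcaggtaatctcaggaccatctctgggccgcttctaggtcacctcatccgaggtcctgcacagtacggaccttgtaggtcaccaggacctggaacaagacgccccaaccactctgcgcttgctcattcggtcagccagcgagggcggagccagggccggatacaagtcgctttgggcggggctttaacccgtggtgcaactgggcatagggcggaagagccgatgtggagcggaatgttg

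The motifs searched, on both strands, were TTTGAA and TTTAAA (both CHR forms), the CCAAT box (read as ATTGG on the other strand), and TTTCCCGC or TTTGGCGC, words bound by E2F factors; no matches overlapped. Over all 32851 promoters of the same length, TTTGAA occurred in 17.9%, TTTAAA in 13.2%, CCAAT in 37.4% and the E2F words in 1.56%. Cdc20 had TTTGAA at position -18 and CCAAT at -53 and -8, counted from the start as position 1. Plk1 had TTTGAA at 31, TTTAAA at -89 and -29, and CCAAT at -14. Aurka (chr2:172370521-172370820, minus strand) held the same kinds of match, with TTTGAA at 33, TTTAAA at 18 and CCAAT at -51 and -19. Cdc25a had ATTGG at -131 and -81 and the E2F word TTTGGCGC at -67, Cdc25b had ATTGG at -28 and Aurkc had ATTGG at 25. None of these letters occurred in the Mad2l1 window. A TTTGAA match was thus present in Plk1, Aurka and Cdc20, and these matches describe the letters only.

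At the other end of the transcript, the oocyte's stored messages are often controlled by a cytoplasmic polyadenylation element (CPE, here TTTTAT or TTTTAAT) near the polyadenylation hexamer (AATAAA or ATTAAA). The last 100 bases of the 3′ UTR, on the transcribed strand, held a CPE in 17.6% and a hexamer in 78.7% of 18374 genes with a UTR at least that long (GENCODE vM1, mm9). A CPE was found in Aurka, Aurkb, Cdc20 and Mad2l1, and none in Plk1, Cdc25a, Cdc25b or Cdc25c; the models of Wee1 and Aurkc had no UTR. The sites of 30 bases from Cdc20 (chr4:118105516-118105545, minus strand), Mad2l1 (chr6:66490955-66490984, plus strand), Aurkb (chr11:68865121-68865150, plus strand) and Plk1 (chr7:129313357-129313386, plus strand) show the arrangements, with CPE and hexamer in capitals.
Cdc20: TTTTATTTTATtttttctAATAAAgttcgt
Mad2l1: ctgtAATAAAgaactcttaTTTTAATgttt
Aurkb: agaacaacaTTTTATAATAAAgtcttaaat
Plk1: agctttatatatATTAAAatgtgtacatct

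Cdc20 carried 2 CPE matches that share a T, upstream of its hexamer, in a 3′ UTR of only 62 bases, which is shorter than the window behind the shares above. In Mad2l1 the CPE lay after the hexamer, in Aurkb it touched the hexamer, and Plk1 had a hexamer only. Aurka had a CPE but no hexamer in its last 100 bases.

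The levels of the 10 genes were ordered per kilobase of transcript, as CPM per kilobase averaged over the 18 embryos. Plk1 (chr7:129302951-129313389, 10 exons, mm9) was highest at 75.4 ± 37.4 (SD, n = 18), followed by Aurka at 49.3 ± 17.4, Mad2l1 at 39.0 ± 14.5, Cdc20 at 33.3 ± 12.7 and Cdc25c at 25.8 ± 13.4. Cdc25a was at 13.3 ± 11.1, Cdc25b at 10.3 ± 6.47, Aurkb at 8.33 ± 7.91, Wee1 at 8.14 ± 6.25 and Aurkc at 7.67 ± 12.3. The kinases Plk1 and Aurka thus stood at the top, and the lowest places went to Aurkb, Wee1 and Aurkc.

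Neighbours in this order were compared within embryos by an exact two-sided sign-flip permutation test of the log2 difference, in 9 pairs. The widest step was from Cdc25c to Cdc25a, with Cdc25c higher in 14 of 18 embryos by a mean of 1.19 on the log2 scale (exact p = 0.00785, adjusted over the 9 pairs 0.0707). The remaining 8 pairs had adjusted p from 0.198 to 0.916, so these neighbours did not differ beyond their spread. The same order came from medians. With coding length in place of transcript length 7 of 10 genes kept their place, and Mad2l1 moved ahead of Plk1 and Aurka; for Wee1 and Aurkc only the coding length was available, which raises their value per length relative to the rest.

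**Figure D1:**
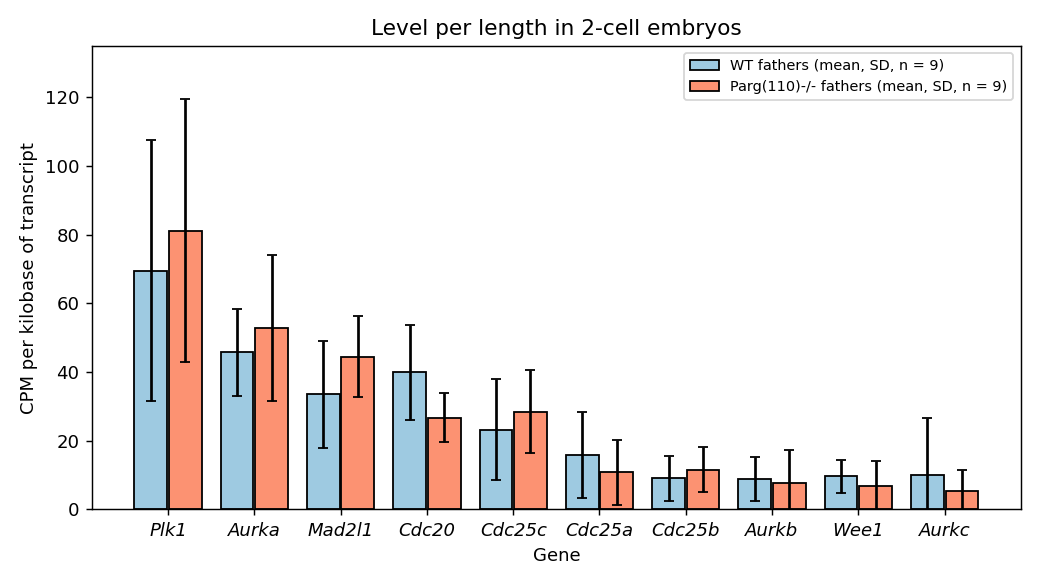
Mean level of each gene in CPM per kilobase of annotated transcript, in embryos of WT fathers (blue) and Parg(110)-/- fathers (red), with bars for SD (n = 9 each; bars that would pass below 0 end at 0). Plk1, Aurka, Mad2l1, Cdc20 and Cdc25c lead, and the SD of Aurkb, Wee1 and Aurkc is larger than their mean in at least 1 group.

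In the comparison of 9 against 9 embryos, none of the 10 genes passed edgeR's quasi-likelihood test at an adjusted p below 0.1, and 0 of 10 had an unadjusted p below 0.05. The background was 0.0% of 15333 transcripts past the adjusted threshold and 5.8% (889) with an unadjusted p below 0.05. DESeq2's Wald test also called 0 of the 10 genes, with 38 transcripts (0.248%) called among all, and Cdc20 alone was below 0.05 before adjustment in it (DESeq2 adjusted p = 0.628). By direction 5 genes were higher and 5 lower. The median log2 fold change of the 10 was 0.00 against -0.02 over all transcripts, and the median absolute value was 0.38 against 0.52. These p-values measure the spread between embryos, and embryos of one father are not independent of each other.

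**Figure D2:**
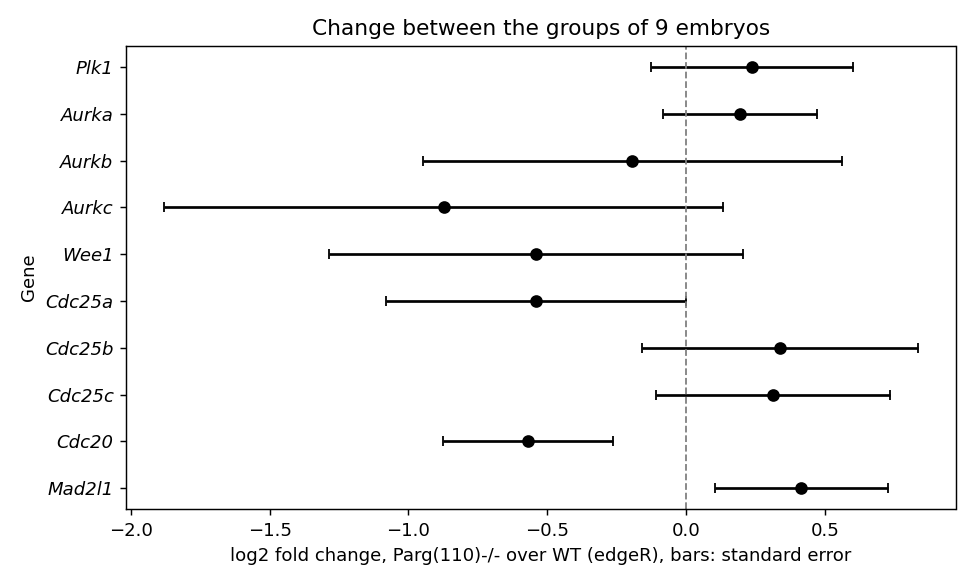
Log2 fold change of each gene between embryos of Parg(110)-/- and WT fathers (edgeR, 9 against 9 embryos), with bars for the standard error. Values run from -0.87 for Aurkc to 0.41 for Mad2l1, and the bars of Cdc20 and Cdc25a lie below 0, that of Cdc25a only just, while that of Mad2l1 lies above it.

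Plk1, which activates Cdc25 and CDK1 and builds the spindle poles, was at 41.2 CPM in the lowest WT embryo, 142 at the median and 299 in the highest. In embryos of Parg(110)-/- fathers the lowest was at 47.2 CPM, the median at 202 and the highest at 279. The ranges overlapped almost completely, with the highest value of all in WT embryo 3-1 and the lowest in WT embryo 3-3, both of the same father. The log2 fold change was 0.24 (SE 0.36, 95% interval -0.48 to 0.95, edgeR adjusted p = 0.979). Father means of log2(CPM + 1) ran from 6.70 for father 8 to 7.73 for father 7, with the WT fathers between them.

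Aurka, the kinase of centrosomes and spindle poles (chr2:172181690-172196035, 9 exons, mm9), varied least among the 3 Aurora kinases. WT embryos had 44.4 CPM at the lowest, 90.2 at the median and 122.9 at the highest, and embryos of Parg(110)-/- fathers had 62.5, 79.6 and 190. Embryo 8-1 stood highest, and the other 17 embryos lay between 44.4 and 127.8 CPM. The log2 fold change was 0.19 (SE 0.28, 95% interval -0.35 to 0.74, edgeR adjusted p = 0.978).

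Aurkb, the kinase of the chromosomal passenger complex (chr11:68859149-68865166, 8 exons), was at 5.81, 13.1 and 43.5 CPM (lowest, median, highest) in WT embryos. It was at 0, 8.34 and 60.2 CPM in embryos of Parg(110)-/- fathers. Both extremes came from father 7: embryo 7-1 had the highest level of the 18 embryos, embryo 7-2 was at 1.28 CPM and embryo 7-3 had no count. A count of 0 in embryo 7-3 allows up to 0.683 CPM (3 counts, counting error only), which is at least 25.3-fold lower than the WT mean. The group difference was a log2 fold change of -0.19 (SE 0.75, 95% interval -1.67 to 1.28, edgeR adjusted p = 0.9997), and its sign turned without WT father 2 (0.05) or without father 6 (0.077).

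Aurkc, the Aurora kinase characteristic of germ cells (chr7:6948154-6955656, 7 exons), was the lowest per length and the most uneven. WT embryos had 1.20, 3.16 and 50.7 CPM, and embryos of Parg(110)-/- fathers had 0, 2.56 and 15.7 CPM. WT embryo 3-1 was far above every other embryo, and 13 of 18 embryos reached 10 counts (8 WT, 5 of Parg(110)-/- fathers). Embryo 8-3 had no count, which allows up to 0.417 CPM. The log2 fold change of -0.87 (SE 1.01, edgeR adjusted p = 0.971) became 0.25 without embryo 3-1. The counts of Aurkc are uncertain as to isoform: NM_001080965 had the identical count in 9 embryos and a lower one in 9, and NM_001080966 the identical count in 8 and a higher one in 10.

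Wee1, the kinase that keeps CDK1 inactive (chr7:117265864-117285626, 11 exons), showed the clearest split within the embryos of Parg(110)-/- fathers. WT embryos had 9.94 CPM at the lowest, 16.8 at the median and 38.7 at the highest. In embryos of Parg(110)-/- fathers the lowest was 0, the median 4.96 and the highest 34.7 CPM. Of these 9 embryos, 6 lay below every WT embryo, and the other 3 lay within the WT range at 28.4, 34.7 and 32.6 CPM, 1 from each father (embryos 6-2, 7-1 and 8-1). Among all 15333 transcripts, 0.711% had at least 6 embryos of Parg(110)-/- fathers below every WT embryo. The limit of 6 equals the value of Wee1 itself, so this share describes the pattern and does not test it.

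Embryo 6-1 had no count of Wee1 in 12497060, which allows up to 0.240 CPM and is at least 77.3-fold lower than the WT mean and 41.4-fold lower than the lowest WT embryo. The group difference did not pass the test, at a log2 fold change of -0.54 (SE 0.75, 95% interval -2.002 to 0.923, edgeR adjusted p = 0.975). With limma-voom and the father as a random effect the log2 fold change was -2.05 (adjusted p = 0.705). Means of log2(CPM + 1) were 4.18, 4.34 and 3.96 for WT fathers 1, 2 and 3 and 2.48, 3.32 and 3.22 for fathers 6, 7 and 8. The father means did not overlap, by a difference of -1.15 with the smallest p that 3 against 3 fathers allow (exact two-sided permutation test, p = 0.1).

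The Cdc25 phosphatases remove the inhibitory phosphates that Wee1 places on CDK1, and none of the 3 passed the test. Cdc25a (chr9:109778083-109796392, 15 exons) was at 20.2, 43.6 and 166 CPM in WT embryos and 1.60, 34.5 and 120 CPM in embryos of Parg(110)-/- fathers. It was highest in WT embryo 3-1 and lowest in embryo 7-2, and 3 embryos of Parg(110)-/- fathers lay below every WT embryo, embryos 6-2, 7-2 and 7-3. Its log2 fold change was -0.54 (SE 0.54, 95% interval -1.60 to 0.52, edgeR adjusted p = 0.969). Cdc25a was the single gene of the 10 whose dispersion lay above the trend of transcripts of like abundance.

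Cdc25b, which is needed for meiotic resumption in the mouse oocyte (chr2:131012685-131024233, 16 exons), was at 8.07, 18.6 and 60.1 CPM in WT embryos and 6.19, 33.0 and 68.4 CPM in embryos of Parg(110)-/- fathers. The groups overlapped over nearly their whole ranges, and the log2 fold change was 0.34 (SE 0.50, 95% interval -0.64 to 1.31, edgeR adjusted p = 0.979) and -0.01 without WT father 3. Its second transcript, NM_001111075, had identical counts in 12 embryos, so these counts are not specific to one isoform. Cdc25c, a mitotic Cdc25, was at 8.06, 38.6 and 106.5 CPM in WT embryos and 10.6, 63.1 and 86.8 CPM in the other group. Embryo 8-3 was the lowest of its group and 7 of 9 lay above the WT median, and the log2 fold change was 0.31 (SE 0.42, 95% interval -0.51 to 1.14, edgeR adjusted p = 0.974).

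Cdc20, the activator of the APC/C (chr4:118105506-118109957, 10 exons), had the smallest p of the 10 genes. WT embryos had 34.2 CPM at the lowest, 73.2 at the median and 104.5 at the highest, and embryos of Parg(110)-/- fathers had 32.0, 43.5 and 65.8 CPM. All 9 embryos of Parg(110)-/- fathers lay below the WT median, and 6 of 9 WT embryos lay above every one of them, while WT embryos 1-1, 2-2 and 3-3 lay within their range. Over all transcripts 1.94% had all 9 embryos below the WT median and 0.737% had at least 6 WT embryos above every other embryo. These criteria equal the pattern of Cdc20 itself, so the shares describe it and do not test it. The mean was 71.4 ± 24.8 CPM in WT embryos and 47.9 ± 13.0 CPM in the others (SD, n = 9 each). The log2 fold change was -0.57, a fold of 0.673 (SE 0.31, 95% interval -1.17 to 0.03), with an unadjusted edgeR p of 0.0743 and an adjusted p of 0.889, so the difference did not pass the threshold.

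Father means of Cdc20 did not overlap between the groups either, with a difference of -0.52 in log2(CPM + 1) (exact two-sided permutation test of fathers, p = 0.1, the smallest possible). Wee1 and Cdc20 were the 2 of 10 genes whose father means separated. Over all transcripts the father means separated in 10.6%, in 7.02% with the Parg(110)-/- fathers lower, and with 10 genes, 2 cannot be told apart from that share.

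Mad2l1, which encodes the checkpoint protein Mad2 that binds and holds back Cdc20 (chr6:66485384-66491027, 5 exons), leaned the other way. WT embryos had 26.2, 46.0 and 103 CPM and embryos of Parg(110)-/- fathers 44.7, 82.2 and 105.5 CPM. The ranges overlapped, but 8 of 9 embryos of Parg(110)-/- fathers lay above the WT median, and all 3 of father 8 were at 89.0 CPM or more. The share of all transcripts with such a count was not measured. Father means of log2(CPM + 1) were 5.83, 5.75 and 5.67 for WT fathers 1, 2 and 3. They were 5.81, 6.26 and 6.63 for fathers 6, 7 and 8, so father 6 lay within the WT fathers. The mean was 57.8 ± 26.8 CPM in WT embryos and 76.7 ± 20.3 CPM in the others (SD, n = 9 each). The log2 fold change of 0.41 (SE 0.31, 95% interval -0.20 to 1.02, edgeR adjusted p = 0.945) did not pass the threshold.

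**Figure D3:**
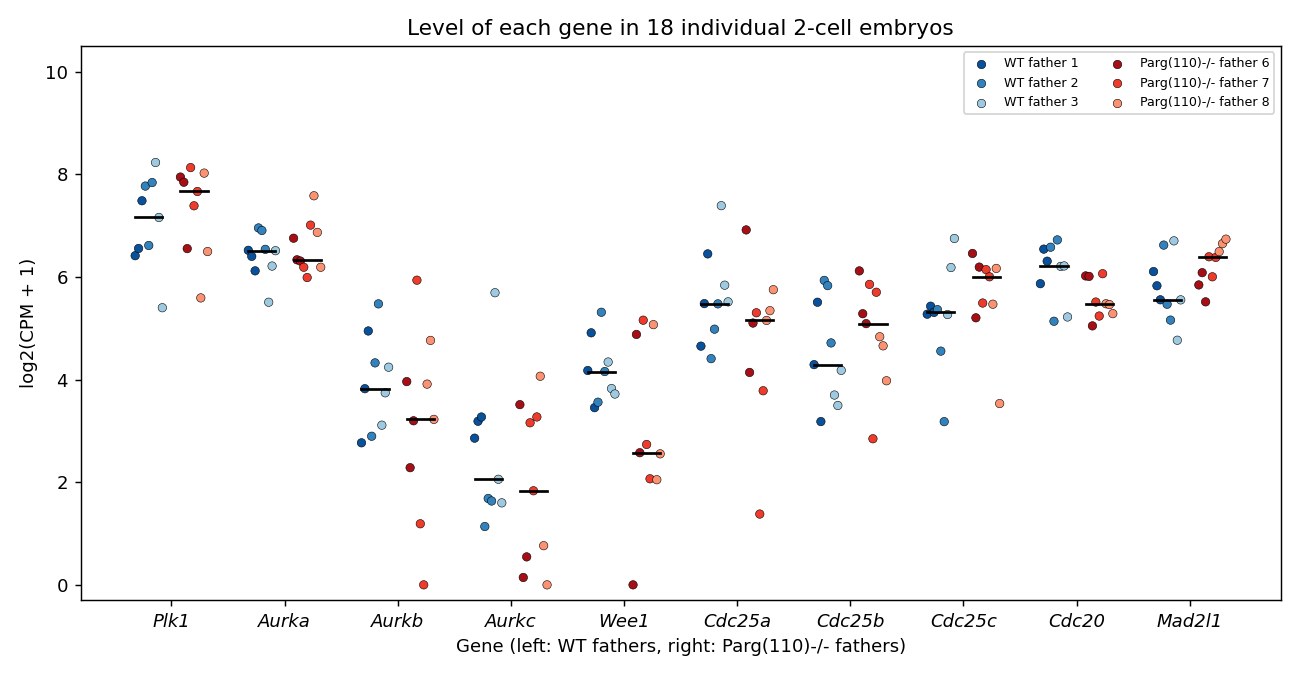
Level of each gene as log2(CPM + 1) in the 18 embryos, WT fathers on the left in blue and Parg(110)-/- fathers on the right in red, with 1 shade per father and a bar at the group median. For Wee1, 6 of 9 red points lie below every blue point, and for Cdc20 all 9 lie below the blue median; for the other genes the groups overlap widely.

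Because total counts differ between embryos, the ratio of 2 genes within an embryo was also taken, for 7 pairs of opposing or related genes. Such a ratio does not depend on total counts, except where a count is 0 or close to it. Ratios are log2 of counts with 0.5 added, compared by an exact two-sided permutation test of 9 against 9 embryos (48620 arrangements), which treats embryos of one father as independent. The ratio of Cdc20 to Mad2l1 was 0.34 ± 0.81 in WT embryos and -0.68 ± 0.54 in embryos of Parg(110)-/- fathers (SD, n = 9 each). The difference was -1.02 on the log2 scale (exact permutation p = 0.00613, adjusted over the 7 ratios 0.0429). The log2 ratio was below 0, that is Cdc20 below Mad2l1 in counts, in 8 of 9 embryos of Parg(110)-/- fathers and in 5 of 9 WT embryos, and 5 embryos of Parg(110)-/- fathers were below every WT embryo.

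By embryo, the log2 ratio of Cdc20 to Mad2l1 was -0.24, 0.72 and 0.76 for WT father 1, -0.04, -0.34 and 1.58 for WT father 2, and -0.50, 1.48 and -0.34 for WT father 3. It was 0.18, -0.07 and -0.48 for father 6, -0.90, -0.78 and -0.32 for father 7, and -1.03, -1.20 and -1.47 for father 8. The 3 embryos of father 8 were the lowest of the 18, and WT embryos 2-3 and 3-2 the highest. Father means were 0.42, 0.40 and 0.21 for WT fathers and -0.13, -0.67 and -1.24 for fathers 6, 7 and 8, which do not overlap (exact permutation test of fathers, p = 0.1, the smallest possible). The father means of Wee1/Cdc25b and Aurkb/Aurka did not overlap either, so 3 of the 7 ratios reached that p. The share of other gene pairs that would reach it was not measured, so no excess is read from this count. Cdc20/Mad2l1 and Wee1/Cdc25b hold genes whose own father means separated, and Aurkb/Aurka includes a count of 0 in embryo 7-3. Leaving out any 1 of the 18 embryos gave exact permutation p from 0.0035 to 0.0135. Without father 8 the difference was -0.74 and the exact permutation p was 0.0629, and without any 1 of the other fathers p was 0.0042 to 0.0236.

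The ratio of Wee1 to Cdc25b was -0.39 ± 0.92 in WT embryos and -2.55 ± 3.39 in embryos of Parg(110)-/- fathers (SD, n = 9 each), a difference of -2.16 (exact permutation p = 0.0391, adjusted over the 7 ratios 0.137). It rested in part on embryo 6-1, with no Wee1 count and a log2 ratio of -10.7: without that embryo the difference was -1.14 (exact permutation p = 0.0764). The ratios Aurkc/Aurka, Aurkb/Aurka, Wee1/Cdc25a, Cdc25b/Cdc25a and Plk1/Aurka differed by -1.60, -1.36, -0.86, 1.30 and 0.07, with exact permutation p from 0.105 to 0.903 and adjusted p from 0.246 to 0.903. Of the 7 ratios, Cdc20/Mad2l1 was the one past an adjusted p of 0.05. This pair joins the genes with the smallest unadjusted edgeR p among the regulators named at the start, Cdc20 (0.0743, lower) and Mad2l1 (0.196, higher). The adjustment covers only these 7 ratios, whose genes were chosen with earlier results of these data known. The share of other gene pairs that would reach as small a p between embryos was not measured, so no excess is read from it.

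**Figure D4:**
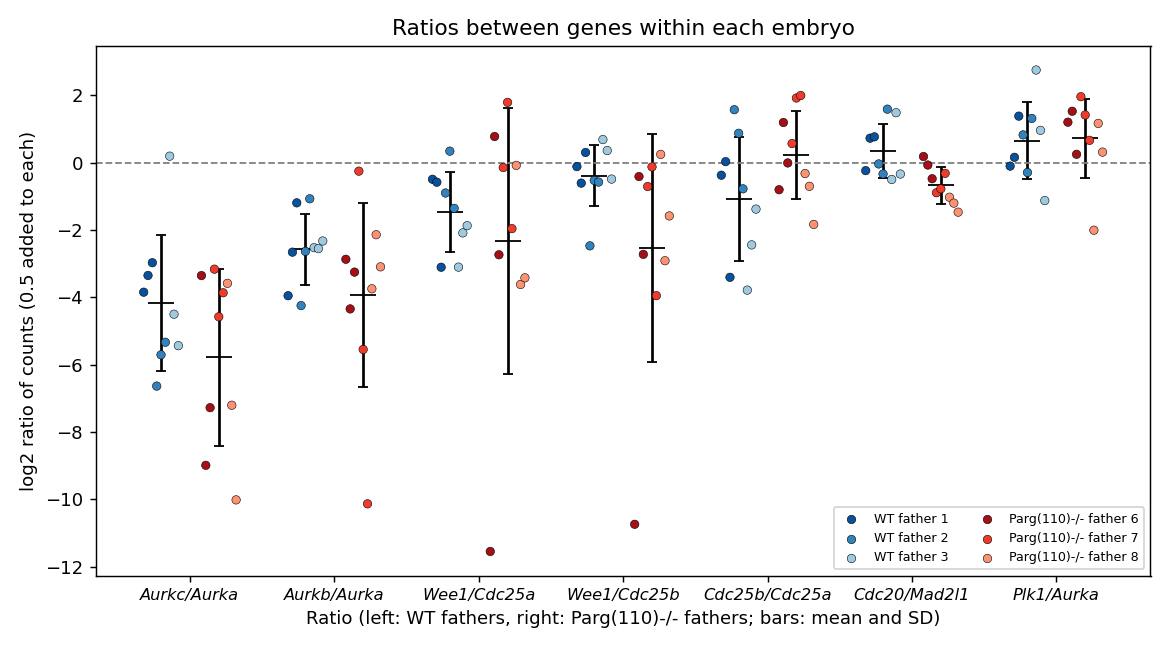
Log2 ratio between 2 genes in each of the 18 embryos, WT fathers on the left in blue and Parg(110)-/- fathers on the right in red, with mean and SD per group (n = 9). For Cdc20/Mad2l1 the mean is 0.34 in WT embryos and -0.68 in the others; the lowest points of Aurkb/Aurka, Aurkc/Aurka, Wee1/Cdc25a and Wee1/Cdc25b belong to embryos without a count of the first gene.

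Each Parg(110)-/- father's 3 embryos were also set against the 9 WT embryos, which these comparisons share. No gene of the 10 passed edgeR's test for any father, beside 0.00696% of all transcripts called for father 6 and 0.0% in both other comparisons. At an unadjusted p below 0.05 there were 0 of 10, beside 7.18%, 8.78% and 8.94% of all transcripts for fathers 6, 7 and 8. DESeq2 called 0 of the 10 for each father, where it called 1.31%, 2.54% and 2.07% of all transcripts for fathers 6, 7 and 8, and Cdc25a for father 7 was alone below 0.05 before adjustment in it. Cdc20 was lower for each father, with log2 fold changes of -0.41, -0.53 and -0.79 for fathers 6, 7 and 8, and Mad2l1 was at -0.03, 0.42 and 0.76. Wee1 was at -0.74, -0.36 and -0.54, and Cdc25a at 0.01, -1.69 and -0.43. The smallest unadjusted p among these was that of Cdc25a for father 7 (edgeR adjusted p = 0.572).

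Single embryos of Parg(110)-/- fathers were each set against the same 9 WT embryos, with the spread taken from the WT embryos. None of the 10 genes passed edgeR's test in any of the 9 embryos, where over all embryos 0.0585% of 165913 tests did (0.027%, 0.0108% and 0.0162% in embryos 6-1, 6-2 and 6-3, 0.157%, 0.157% and 0.103% in 7-1, 7-2 and 7-3, and 0.0%, 0.0545% and 0.0% in 8-1, 8-2 and 8-3). At an unadjusted p below 0.05 there were 4 results in 90 tests, beside 5.72% of all tests, each a low or missing value: Wee1 in embryo 6-1 (edgeR adjusted p = 0.308), Cdc25a in embryo 7-2 (0.271), Aurkb in embryo 7-3 (0.356) and Aurkc in embryo 8-3 (0.690). WT embryos compared in the same way with the other 8 also gave 4, beside 4.29% of all tests, Cdc25c in embryo 2-3, Aurkc and Cdc25a in embryo 3-1 and Plk1 in embryo 3-3, and none passed (edgeR adjusted p from 0.666 to 0.769). DESeq2's Wald test made 6 calls among the 90 tests of these genes, 6.67% against 4.15% of all tests. These were Wee1 in embryo 6-1, Aurkc in embryos 6-2 and 8-3, Aurkb in embryos 7-2 and 7-3 and Cdc25a in embryo 7-2, all lower. DESeq2's calls over all transcripts were mostly lower too. In its comparisons by father, 171 of 189, 308 of 356 and 250 of 289 calls were lower for fathers 6, 7 and 8. The direction is therefore not read as a trait of these genes.

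Embryos of the same father differed. The pooled SD within a father, in log2(CPM + 1), ran from 0.45 for Aurka, 0.53 for Cdc20 and 0.54 for Mad2l1 to 1.45 for Wee1, 1.52 for Aurkc and 1.55 for Aurkb. The biological coefficient of variation in edgeR ran from 46.9% for Aurka to 137% for Aurkc, against a median of 124% over all transcripts tested. That median covers transcripts of every level. At like abundance the trend was 66.7% for Aurka and 146% for Aurkc. The ratio to the trend ran from 0.68 for Cdc20 to 1.02 for Cdc25a. All 10 genes had a count in 15 of the 18 embryos, and the 3 missing values were Aurkb in 7-3, Aurkc in 8-3 and Wee1 in 6-1. All 3 fell in embryos of Parg(110)-/- fathers, and fewer transcripts were detected there than in most WT embryos, at 12439, 12678 and 13273; the part of this in the missing values was not tested.

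A list of 62 other genes of mitotic entry and exit gave the setting. All 62 were tested, 0 passed edgeR's adjusted threshold (0.0% of all transcripts did), 32 were higher and 30 lower, and the median log2 fold change was 0.01 against -0.02 over all transcripts. At an unadjusted p below 0.05 there were 3, against 5.8% of all transcripts. Cdk1, the kinase on which Wee1 and Cdc25 act, was at 96.8 ± 46.0 CPM in WT embryos and 55.1 ± 20.1 CPM in the others (log2 fold change -0.82, SE 0.32, edgeR adjusted p = 0.653). Plk4, the kinase of centriole duplication, was at 132 ± 23.5 and 203 ± 95.3 CPM (0.63, SE 0.27, edgeR adjusted p = 0.789). Anapc4, an APC/C subunit, was at 47.6 ± 25.9 and 86.5 ± 58.1 CPM (0.87, SE 0.41, edgeR adjusted p = 0.839).

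By role, none of the groups had a gene past the threshold. Of 17 genes of the APC/C and its regulators 9 were higher and 8 lower, and the subunit Anapc5, with the most counts, had a log2 fold change of -0.45. Of 16 spindle checkpoint genes 6 were higher and 10 lower, with Nuf2, a kinetochore protein, at 0.63 and the kinetochore motor Cenpe at 0.14. Of 7 genes grouped as relatives of Wee1 or as regulators of Wee1 and Cdc25, 5 were higher and 2 lower. Among them Mastl, the Greatwall kinase that restrains the phosphatase opposing CDK1, was at 1.05 (SE 0.52, edgeR adjusted p = 0.866). Wee2, the oocyte's Wee1 relative, was at 0.23. Of 7 Polo-like kinases and partners 5 were higher and 2 lower, and of 5 CDK1 and cyclin genes 2 were higher and 3 lower, with cyclin A2 (Ccna2) at -0.11. Of 6 Aurora partners 3 were higher and 3 lower, with Tpx2, the activator of Aurora A, at -0.38 and Haspin, the histone kinase that places Aurora B at centromeres, at 0.00. Of 4 genes of separase and cohesin protection 2 were higher and 2 lower, with Sgo1, shugoshin, at 0.94 (SE 0.48, edgeR adjusted p = 0.872) and Pttg1, securin, at 0.08.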

How the data were processed

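RNA from single embryos was amplified by the authors (WT-Ovation One-Direct) and sequenced; they aligned reads to mm9 with RUM (up to 1 mismatch, non-unique reads left out) and deposited raw read counts per RefSeq transcript, 1 table per embryo. The counter and RefSeq release were not given in the sources used here, and the submitters' processing notes name DESeq 1.10.0. Amplifying cDNA of 1 embryo can lose rare transcripts, reads shared by isoforms are counted for each, and whether counting used strand was not given. CPM are counts scaled to a table total of 1000000. All 153 embryo pairs differed beyond sampling noise.

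The 10 genes and all lists were chosen with earlier results of these data known. All 10 genes are named. Of the other mitotic genes, those named are the one with the smallest p and the one with the highest mean CPM in each role. Counts of transcripts that reached 10 counts in 3 or more embryos (1 or more in single-embryo comparisons) were tested with edgeR 4.0.16 (R 4.3.3), TMM and the quasi-likelihood test with Benjamini-Hochberg adjustment over all transcripts tested, at the threshold of 0.1. Standard errors were derived from edgeR's F statistic, and 95% intervals from the standard error under a normal approximation. Groups were WT and Parg(110)-/- as labelled. Alternatives were DESeq2 1.42.0, limma 3.58.1, RLE size factors, total counts, other filters, sums over each father's embryos, embryo number as blocking factor and fathers left out. Embryos left out in turn, and a pseudocount of 0.5 CPM, were added after seeing the data. Shares of transcripts with embryos beyond the other group's range or below its median used criteria that match Wee1 and Cdc20. edgeR's test of 9 against 9 embryos was also run on simulated data, where it missed most transcripts changed 4-fold. A gene that did not pass is therefore not shown to be unchanged. Symbols came from RefSeq for 26136 of 26823 transcripts, and lengths and mm9 positions from GENCODE vM1, with the longest coding transcript per gene. Ratios and levels used Python 3.11.15 and scipy 1.17.1. No per-sample column was left without a sample. Floors and intervals cover counting error or the spread between embryos only.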

Additional observations from a re-analysis of the deposited data

Results flagged for a closer look

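In 34 sets of 9 embryos (10 genes and 7 log2 ratios in both groups), 8 had 1 embryo whose gap to the next was large for the range of its group. Chance marks about 1 set in 20 if the values follow a normal distribution. That was not checked for these values, so no excess is read from the 8. The genes and the ratios built from them are not independent. WT embryo 3-1 stood alone with 50.7 CPM of Aurkc, where the next WT embryo had 8.65, and with 166 CPM of Cdc25a, where the next had 86.3. Embryo 7-1 had 60.2 CPM of Aurkb, where the next embryo of a Parg(110)-/- father had 26.1, and embryo 6-1 had 120 CPM of Cdc25a, where the next had 52.8. Embryo 6-1 also had the lowest log2 ratios of Wee1 to Cdc25a (-11.5, next -3.62) and of Wee1 to Cdc25b (-10.7, next -3.95), both of which rest on a Wee1 count of 0 with 0.5 added. WT embryo 2-1 had a log2 ratio of Wee1 to Cdc25b of -2.47, where the next was -0.61. Embryo 8-1 had a log2 ratio of Plk1 to Aurka of -2.01, where the next was 0.25.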

How the results depend on the processing

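Of the 10 genes, 0 passed the test of 9 against 9 embryos under any alternative run. The per-father tests were rerun with RLE size factors, no filter, DESeq2, WT fathers left out and a threshold of 0.05, again with 0 of 10. Of the 62 other mitotic genes 0 passed in the alternatives run, which for them did not include the embryo number block. DESeq2's Wald test on single embryos made 6 calls in place of 0; the cause was not tested. Of 150 recomputed log2 fold changes, 144 kept their direction and 0 passed the threshold. Those that turned were Aurkb with counts summed over each father's embryos (0.0085), without father 2 (0.05) and without father 6 (0.077), Aurkc without father 3 (0.05) and without WT embryo 3-1 (0.25), and Cdc25b without father 3 (-0.012); the cause was not tested. With 1 father or embryo 3-1 left out, Aurkb ran from -0.49 to 0.077, Aurkc from -1.34 to 0.25 and Cdc25b from -0.012 to 0.95. Over all the alternatives run, Cdc20 ranged from -0.69 to -0.47 (edgeR, DESeq2 or limma adjusted p 0.398 to 0.9999). Mad2l1 ranged over them from 0.21 to 0.60 and Wee1 from -2.05, in limma-voom, to -0.38. With 1 father or embryo 3-1 left out, Wee1 ran from -0.70 to -0.38.

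The embryo number does not pair embryos of different fathers: deviations of same-numbered embryos of the groups correlated at -0.12 to 0.18 (median 0.01, 27 pairs). With the embryo number as a replicate block, 0 of 10 genes passed, and the log2 fold change of Cdc20 was -0.57 and that of Mad2l1 0.51.

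Over fathers, where the smallest p is 0.1, the exact permutation test gave p = 0.1 for 3 of 7 ratios, Cdc20/Mad2l1 (-1.02), Wee1/Cdc25b (-2.16) and Aurkb/Aurka (-1.36). The share of other gene pairs that would reach it was not measured. With 1 father or embryo left out, differences ran from -1.29 to -0.74 for Cdc20/Mad2l1 (exact permutation p 0.0035 to 0.0629), -2.73 to -1.12 for Wee1/Cdc25b (0.0145 to 0.211), 0.57 to 2.11 for Cdc25b/Cdc25a (0.0158 to 0.484), -1.83 to -0.58 for Aurkb/Aurka (0.0368 to 0.379), -2.56 to -1.03 for Aurkc/Aurka, -1.98 to 0.29 for Wee1/Cdc25a and -0.24 to 0.52 for Plk1/Aurka. Wee1/Cdc25a turned positive without embryo 6-1 (0.29) or father 6 (0.22). Plk1/Aurka turned negative without embryos 1-1 (-0.03), 2-2 (-0.05), 3-3 (-0.15), 6-2 (-0.03), 7-1 (-0.09) or 7-2 (-0.02) and without fathers 1 (-0.02), 6 (-0.07) or 7 (-0.24). With coding length 7 of 10 genes kept their place by level. At these depths 1 count is up to 0.351 CPM, which limits Aurkb, Aurkc and Wee1 most.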

Other observations

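No single embryo was low or high for all 10 genes. Embryo 6-1 was above the median over embryos for 8 of the 10 and had no Wee1, whereas embryo 7-2 was above it for 1, embryos 6-3 and 8-3 for 2, and WT embryos for 4 to 6. WT embryo 3-1 held the highest level of Plk1, Aurkc and Cdc25a and the lowest of Aurka. The summed level of the 10 genes ran from 410 to 813 CPM in WT embryos and from 396 to 773 CPM in embryos of Parg(110)-/- fathers.

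Wee2, which does for the oocyte what Wee1 does in other cells, had 193 CPM in embryo 6-1, where Wee1 had no count. That was the lowest Wee2 level among embryos of Parg(110)-/- fathers, where the highest was 533 CPM in embryo 7-1. WT embryos had 72.4 to 511 CPM. Whether Wee2 stands in for Wee1 was not tested.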
